A study of Mus musculus with 26 samples.

Results

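The 10 genes described here encode 9 chemokines and interleukin 6, secreted signals by which tumour cells can attract or instruct leukocytes. They were chosen by name, as the rows of the authors' normalized MC38 table called Cxcl1, Cxcl2, Cxcl5, Cxcl10, Cxcl16, Cx3cl1, Ccl2, Ccl7, Ccl9 or Il6. That table holds 15629 genes, 8 of the 10 among them, and each of the 10 symbols matched 1 Ensembl identifier (for example Cxcl10, ENSMUSG00000034855.14, and Ccl9, ENSMUSG00000019122.9). Cxcl2 and Cxcl5 stand only in the raw table of 56562 identifiers, and they fell below the filter on low counts that left 14835 genes to test. The cells were MC38/gp100, a mouse colon adenocarcinoma line carrying the gp100 antigen, which all 6 groups share. Wild-type cells and Mtap knockout (KO) cells were each grown for 5 days with DMSO, 0.5 uM GSK3326595 or 0.5 uM MRTX1719. Every group has 3 libraries apart from MRTX1719-treated wild-type cells, with replicates 1 and 3 only, which makes 17 libraries of poly(A) RNA. The labels do not say whether the KO line is 1 clone, nor whether replicates are separate cultures, so the p-values measure the spread between libraries, which may be technical.

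Chemokines are small proteins that leukocytes follow through receptors on their surface. Cxcl1, Cxcl2 and Cxcl5 act on neutrophils through CXCR2, Cxcl10 on activated T cells and NK cells through CXCR3, and Ccl2 and Ccl7 on monocytes through CCR2. Cxcl16 and Cx3cl1 are made as membrane-anchored proteins that proteases can release, and Il6 is a cytokine that signals through Il6ra and Il6st. Many of these genes are textbook targets of NF-kappaB, and Cxcl10 also of interferon signalling. PRMT5, the target of both compounds, puts symmetric dimethyl marks on arginine. Mtap clears methylthioadenosine (MTA), which blocks PRMT5, and MRTX1719 binds PRMT5 together with MTA.

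Library totals ran from 19302768 to 27786226 counts. Levels are given as CPM, counts scaled by library size. Under DMSO, Mtap was at 393 ± 4.61 CPM in wild-type libraries and 271 ± 6.31 CPM in KO libraries (SD, n = 3 each). The log2 fold change was -0.53 ± 0.022 (SE), so Mtap transcript was lower in the KO line and still present. Of 10 epithelial markers, 9 had a mean below 1 CPM in each group, and Epcam was at 0 in 5 of the 6 groups, while Krt8 ran from 14.4 to 60.1 CPM. Of 12 leukocyte markers, 9 or 10 had a mean below 1 CPM in every group and their summed level was 24.8 to 40.9 CPM in all libraries. None of those 12 was at 0 in all 17 libraries. The summed level of 9 fibroblast and endothelial markers, mostly the collagen gene Col3a1, was 1995 to 2258 CPM in wild-type libraries, 6380 to 6743 in KO with DMSO, 4040 to 4091 in KO with GSK3326595 and 2845 to 2873 in KO with MRTX1719. The summed level of 18 immediate early and heat shock genes was 4021 to 4138 CPM in wild-type with DMSO, 3503 to 3582 with GSK3326595 and 3493 to 3544 with MRTX1719, so both compounds lay below DMSO without overlap. In KO libraries it was 1474 to 1510 CPM with DMSO, 1338 to 1412 with GSK3326595 and 1326 to 1346 with MRTX1719. There too both compounds lay below DMSO without overlap, but the genes of the sum did not move together. Egr1 had KO means of 266 CPM with DMSO, 136 with GSK3326595 and 76.2 with MRTX1719. Fosl1 had 66.9, 98.4 and 111 CPM in the same order. Of 17 tested, 5 were higher and 5 lower with GSK3326595 in KO cells, and 8 and 8 with MRTX1719. Of all genes, 52.8% and 70.5% passed there. The part of these marker levels in the results below was not tested. In such bulk samples, fewer cells making a transcript and less of it per cell cannot be told apart.

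RefSeq entries of the GRCm38.p6 build gave the sequence upstream of the start site for 6 of the 10 genes. The 250 bases before the start are printed for 4 of them, because Cxcl1 and its neighbour Cxcl2 share one layout, Cxcl10 carries several kinds of match and Ccl9 has the largest changes of the genes below. Capitals mark matches, on either strand, to the NF-kappaB consensus, to the interferon response core (GAAA, any 2 bases, GAAA) or to the AP-1 motif TGANTCA. They run 5' to 3' on the gene's strand, at chr5:90890995-90891244 (plus strand) for Cxcl1, chr5:90903649-90903898 (plus) for Cxcl2, chr5:92348890-92349139 (minus) for Cxcl10 and chr11:83578637-83578886 (minus) for Ccl9.
Cxcl1: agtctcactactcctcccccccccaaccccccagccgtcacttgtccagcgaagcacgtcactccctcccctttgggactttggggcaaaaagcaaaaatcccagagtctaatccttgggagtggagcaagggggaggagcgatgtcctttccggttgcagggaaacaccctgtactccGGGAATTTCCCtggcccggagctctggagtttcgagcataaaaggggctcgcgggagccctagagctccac
Cxcl2: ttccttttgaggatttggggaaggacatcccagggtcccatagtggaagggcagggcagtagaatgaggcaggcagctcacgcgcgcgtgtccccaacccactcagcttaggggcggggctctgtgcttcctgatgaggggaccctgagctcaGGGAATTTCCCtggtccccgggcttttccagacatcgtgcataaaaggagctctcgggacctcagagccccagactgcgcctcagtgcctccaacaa
Cxcl10: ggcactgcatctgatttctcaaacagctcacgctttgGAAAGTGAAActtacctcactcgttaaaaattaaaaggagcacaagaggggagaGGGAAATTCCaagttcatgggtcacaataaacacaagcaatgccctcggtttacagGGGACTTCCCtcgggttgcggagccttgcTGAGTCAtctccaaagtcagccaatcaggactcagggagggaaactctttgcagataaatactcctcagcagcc
Ccl9: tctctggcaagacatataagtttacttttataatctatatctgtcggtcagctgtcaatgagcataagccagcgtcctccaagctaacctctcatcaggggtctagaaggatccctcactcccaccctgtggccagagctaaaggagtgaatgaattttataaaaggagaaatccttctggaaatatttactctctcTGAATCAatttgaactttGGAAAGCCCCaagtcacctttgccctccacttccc

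Cxcl1 and Cxcl2, adjacent on chromosome 5, each held an NF-kappaB match that reads on both strands with an offset of 1 base, at 71 to 61 bases before the start in Cxcl1 and at 97 to 87 in Cxcl2. Cxcl10 held 2 NF-kappaB matches, at 159 to 150 and 103 to 94, an interferon core at 213 to 204 and an AP-1 match at 74 to 68. Ccl9 had an AP-1 match at 53 to 47 and an NF-kappaB match at 35 to 26. Of the 2 entries not printed, Il6 had NF-kappaB at 44 to 35 and AP-1 at 249 to 243, and Cx3cl1 had no match in this window. Over 32851 RefSeq promoter windows of the same length, 3.90% held the NF-kappaB consensus, 2.98% the interferon core and 6.75% the AP-1 motif. A match describes letters only and says nothing of binding in these cells.

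**Figure D1:**
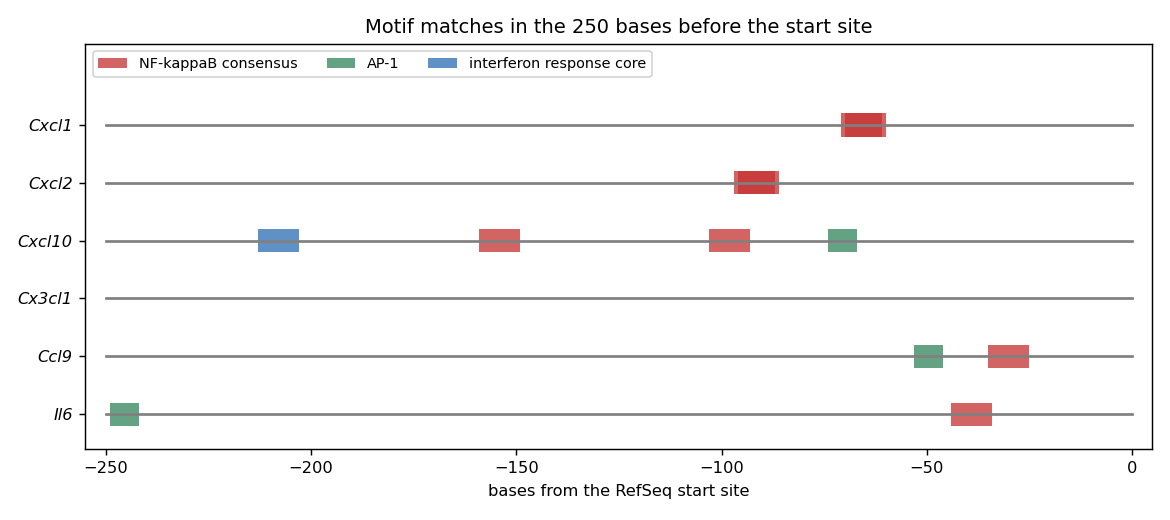
Matches to 3 motifs in the 250 bases before the RefSeq start site of 6 genes (x axis: bases from the start site; coloured blocks: matches on either strand). NF-kappaB blocks are present in 5 of the 6 genes, twin blocks that overlap stand in Cxcl1 and Cxcl2, and Cx3cl1 has none.

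Across the groups, the 8 tested genes split in several ways. Under DMSO, 3 were higher in KO than in wild-type cells (Ccl2, Ccl7, Ccl9) and 4 lower (Cxcl1, Cxcl10, Cxcl16, Il6). This is 7 of 8 in a comparison where 73.2% of all genes passed (36.2% higher, 37.0% lower), a share close to the background. GSK3326595 in wild-type cells raised 5 (Cxcl1, Ccl2, Ccl7, Ccl9, Il6) and lowered 2 (Cxcl10, Cxcl16), against a background of 41.1% (20.1% higher, 21.1% lower). MRTX1719 in wild-type cells raised 4 (Cxcl10, Ccl2, Ccl7, Il6) and lowered Cxcl16, against a background of 7.53% (3.62% higher, 3.91% lower). This count is the least steady, at 2 to 5 when single libraries were left out. In KO cells, GSK3326595 raised Ccl9 and lowered 4 (Cxcl10, Cxcl16, Ccl2, Ccl7), against 52.8% of all genes (27.7% higher, 25.1% lower). In the same cells MRTX1719 raised Cxcl1 and Ccl9 and lowered 4 (Cxcl10, Cxcl16, Cx3cl1, Ccl2), against 70.5% (37.0% higher, 33.6% lower). Each pass is an adjusted p under 0.05 in the quasi-likelihood test of edgeR, adjusted by Benjamini-Hochberg over the 14835 genes, and all adjusted p-values below are from that fit. Log2 fold changes carry their SE after ±. The 2 inhibitor comparisons within a line share the same DMSO libraries. The split of all calls into higher and lower depends on the scaling: with upper quartile scaling the majority direction turned in each of these 5 comparisons, for example from 48.8% to 58.8% higher with GSK3326595 in wild-type and from 52.4% to 42.7% with MRTX1719 in KO cells.

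The median log2 fold change of the 8 genes was -0.64 for KO against wild-type, 0.58 and 0.19 for GSK3326595 and MRTX1719 in wild-type cells, and -0.08 and -0.11 for the same compounds in KO cells. Over all genes tested the medians of these 5 comparisons lay between -0.000465 and 0.0215.

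**Figure D2:**
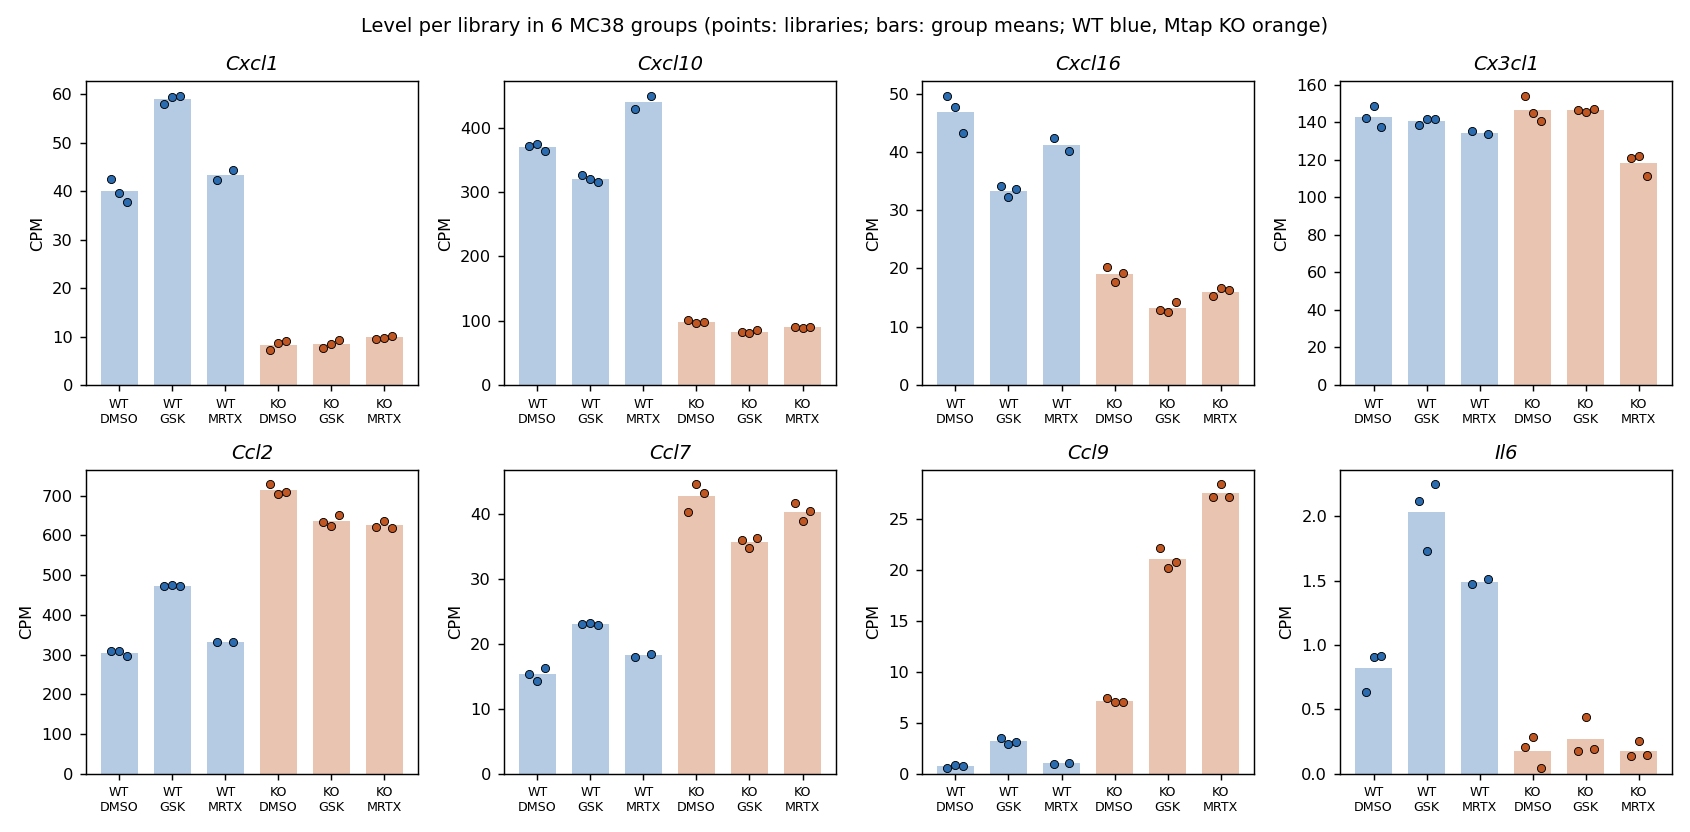
Level of the 8 tested genes in each of the 17 MC38 libraries (y axis: CPM, linear from 0, on its own scale for each gene; points: libraries; bars: group means). WT is the wild-type line, GSK and MRTX are GSK3326595 and MRTX1719; Cxcl10 in KO libraries stayed at or under 101 CPM and Ccl9 ran from 0.591 to 28.5 CPM.

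The neutrophil chemokine Cxcl1 was 4.77-fold lower in KO than in wild-type cells under DMSO, and GSK3326595 raised it in wild-type cells, an effect that differed from that in KO cells. In wild-type cells it was at 42.5, 39.6 and 37.8 CPM with DMSO, 57.9, 59.5 and 59.7 with GSK3326595, and 42.4 and 44.3 with MRTX1719. In KO cells it was at 7.29, 8.66 and 8.99 CPM with DMSO, 7.67, 8.44 and 9.31 with GSK3326595, and 9.55, 9.72 and 10.2 with MRTX1719. All 9 KO libraries lay far below all 8 wild-type libraries. Wild-type GSK3326595 libraries stood above the rest without overlap, the wild-type DMSO and MRTX1719 ranges overlapped, and so did KO with DMSO and with GSK3326595. The line difference was -2.25 ± 0.065 on the log2 scale (adjusted p = 1.03e-67). GSK3326595 gave 0.56 ± 0.044 in wild-type (adjusted p = 5.21e-23) and 0.02 ± 0.088 in KO cells (adjusted p = 0.847), and the difference between these effects was -0.54 ± 0.099 (adjusted p = 1.52e-06). MRTX1719 gave 0.12 ± 0.052 in wild-type (adjusted p = 0.170) and 0.23 ± 0.087 in KO cells (adjusted p = 0.0153). That last call was lost with upper quartile scaling (adjusted p = 0.152), without the filter on low counts (0.0735), and without KO DMSO replicate 1 (0.148) or KO MRTX1719 replicate 3 (0.05003).

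Cxcl2 and Cxcl5, the other neutrophil chemokines listed, were barely detected. Cxcl2 had 26 counts over all 17 libraries, with 0 to 6 in any library. By group this was 6 counts in wild-type with DMSO, 10 with GSK3326595 and 3 with MRTX1719, and 1, 5 and 1 in the KO groups in the same order. Cxcl5 had 54 counts in all, 0 to 9 per library, with 4, 8 and 5 in the wild-type and 12, 15 and 10 in the KO groups. Pooled over all libraries, Cxcl2 was at 0.0620 CPM (exact Poisson interval 0.0405 to 0.0909, counting error only) and Cxcl5 at 0.129 CPM (0.0968 to 0.168). Differences between groups were not tested at this depth. So the motif layout that Cxcl1 and Cxcl2 share, printed above, went with transcript at 7.29 CPM or more in each library for Cxcl1 and near the floor for Cxcl2. Cxcl3, another close relative, had a mean of at most 0.0283 CPM in any group, and how reads shared among these relatives were counted is not given in the sources used here.

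The interferon-induced chemokine Cxcl10 was 3.75-fold lower in KO than in wild-type cells under DMSO, and the compounds moved it in opposite directions in wild-type cells. With DMSO, wild-type libraries were at 371, 375 and 364 CPM. With GSK3326595 they were at 327, 320.2 and 316 CPM, and with MRTX1719 at 429 and 450.0 CPM. KO libraries were at 101, 96.9 and 98.2 CPM with DMSO, 82.0, 81.6 and 84.9 with GSK3326595 and 90.5, 88.3 and 90.9 with MRTX1719. No 2 of the 6 groups overlapped, and the order from lowest was KO with GSK3326595, KO with MRTX1719, KO with DMSO, then wild-type with GSK3326595, DMSO and MRTX1719. The line difference was -1.91 ± 0.026 (adjusted p = 6.17e-109). GSK3326595 lowered Cxcl10 in both lines, by a log2 change of -0.21 ± 0.022 in wild-type (adjusted p = 1.64e-14) and -0.25 ± 0.030 in KO cells (adjusted p = 4.21e-13), and the difference of -0.04 ± 0.037 did not pass (adjusted p = 0.362, 95% interval -0.118 to 0.0294). MRTX1719 gave 0.25 ± 0.025 in wild-type (adjusted p = 3.65e-15) and -0.13 ± 0.030 in KO cells (adjusted p = 2.64e-05), a difference between lines of -0.38 ± 0.039 (adjusted p = 8.67e-17).

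Genes of interferon signalling were measured in the same libraries. Irf7, an interferon regulatory factor, fell with GSK3326595 in wild-type (-1.16 ± 0.033, adjusted p = 8.46e-67) and KO cells (-0.83 ± 0.036, adjusted p = 1.81e-46). It also fell with MRTX1719 in KO cells (-0.83 ± 0.037, adjusted p = 9.90e-47) and was at 0.03 ± 0.033 in wild-type cells (adjusted p = 0.710). Irf1, another factor of that family, stayed between means of 125 and 141 CPM in all groups. Of 16 interferon signalling genes, all tested, 7 were higher and 8 lower in KO than wild-type, 3 and 8 with GSK3326595 and 4 and 0 with MRTX1719 in wild-type cells, and 5 and 8 with GSK3326595 and 4 and 8 with MRTX1719 in KO cells. Over all genes tested the shares that passed in these comparisons were 73.2%, 41.1%, 7.53%, 52.8% and 70.5%, and 12 of the 16 in the last is close to its share. The list's median log2 fold changes in that order were -0.07, -0.13, 0.03, -0.16 and -0.15. Cxcl11, a second ligand of the Cxcl10 receptor, under DMSO stood at 4.27 ± 0.414 CPM in wild-type against 0.932 ± 0.309 CPM in KO cells (SD, n = 3 each; -2.23 ± 0.20, adjusted p = 1.78e-20). Cxcl9, the remaining ligand of that receptor, had means between 0.0880 and 0.529 CPM. Under DMSO it went the other way, at 0.224 ± 0.118 CPM in wild-type against 0.466 ± 0.179 CPM in KO cells (SD, n = 3 each). That rise passed, on 16 and 32 summed counts. In KO cells both compounds lowered Cxcl9 beyond the threshold, to means of 0.215 CPM with GSK3326595 and 0.0880 CPM with MRTX1719.

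The membrane-anchored chemokine Cxcl16 was 2.48-fold lower in the KO line, and both compounds lowered it in both lines. It was at 49.7, 47.7 and 43.1 CPM in wild-type with DMSO, 34.1, 32.3 and 33.6 with GSK3326595, and 42.3 and 40.2 with MRTX1719. KO libraries were at 20.2, 17.7 and 19.1 CPM with DMSO, 12.9, 12.6 and 14.2 with GSK3326595, and 15.2, 16.6 and 16.3 with MRTX1719. The 6 groups did not overlap, and within each line the order was GSK3326595 lowest, MRTX1719 next and DMSO highest. The line difference was -1.31 ± 0.054 (adjusted p = 7.55e-50). GSK3326595 gave -0.49 ± 0.048 in wild-type (adjusted p = 2.14e-17) and -0.52 ± 0.068 in KO cells (adjusted p = 3.12e-11). MRTX1719 gave -0.18 ± 0.051 in wild-type (adjusted p = 0.0110) and -0.24 ± 0.066 in KO cells (adjusted p = 8.24e-04). Neither effect was shown to differ between lines, with differences of -0.02 (95% interval -0.187 to 0.141) for GSK3326595 and -0.05 (-0.219 to 0.113) for MRTX1719. The wild-type MRTX1719 call was lost with DESeq2 (adjusted p = 0.0813) and without wild-type DMSO replicate 1 (0.133) or 2 (0.0577) or MRTX1719 replicate 3 (0.232). Zmynd15, which overlaps Cxcl16 in the GRCm38 annotation, had means of 4.38 to 5.06 CPM and passed none of these 5 comparisons.

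Cx3cl1, the other membrane-anchored chemokine, differed from the rest of the genes in that it did not pass between the lines. It was at 142, 149 and 137 CPM in wild-type and 154, 145 and 141 CPM in KO cells with DMSO, which overlap (0.03 ± 0.029, adjusted p = 0.281). With GSK3326595 it was at 138, 142 and 142 CPM in wild-type and 146, 146 and 147 CPM in KO cells, within the DMSO ranges, and neither comparison passed. With MRTX1719 it was at 135 and 133 CPM in wild-type and 121, 122 and 111 CPM in KO cells. The KO MRTX1719 libraries were the lowest of all and overlapped no other group. MRTX1719 gave -0.31 ± 0.030 in KO (adjusted p = 3.59e-17) and -0.09 ± 0.033 in wild-type cells (adjusted p = 0.0750), a difference of -0.22 ± 0.044 (adjusted p = 9.50e-06). Without wild-type DMSO replicate 3 the wild-type fall also passed (adjusted p = 0.0293), as it did in a fit of only the 2 groups compared (0.0312). The line comparison under DMSO passed with upper quartile scaling (0.11, adjusted p = 5.82e-04) and when a mean of 50 counts was required (0.0389).

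The proteases that release both anchored proteins were measured in the same libraries. Adam10, which cleaves Cxcl16 and Cx3cl1 at rest, had means of 165 to 191 CPM and fell with MRTX1719 in KO cells (-0.21 ± 0.026, adjusted p = 7.31e-13). Adam17, which cleaves Cx3cl1 on stimulation, had means of 151 to 168 CPM and rose by 0.09 ± 0.027 in that comparison (adjusted p = 0.00105). Neither differed between the lines under DMSO beyond the test's threshold. Timp3, an inhibitor of these proteases, had 7.82 ± 1.02 CPM in wild-type against 0.899 ± 0.148 CPM in KO cells (SD, n = 3 each; -3.14 ± 0.17, adjusted p = 9.14e-39). Of the 5 genes of this shedding list, 2 were higher and 1 lower in KO than wild-type under DMSO, where 73.2% of all genes passed. With GSK3326595 in wild-type cells all 5 passed, 2 higher and 3 lower, where 41.1% of all genes passed. The lower genes were Adam10 (-0.09 ± 0.025, adjusted p = 0.00108), Adam17 (-0.08 ± 0.026, adjusted p = 0.0117) and Timp3 (-0.79 ± 0.11, adjusted p = 1.54e-09).

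The monocyte chemokines Ccl2 and Ccl7, neighbours on chromosome 11, were higher in the KO line by 2.34-fold and 2.81-fold. GSK3326595 raised both in wild-type cells and lowered both in KO cells. Ccl2 was at 309, 309 and 296 CPM in wild-type with DMSO, 473, 476 and 471 with GSK3326595, and 332 and 332 with MRTX1719. In KO cells it was at 729, 703 and 708 CPM with DMSO, 635, 624 and 650.4 with GSK3326595, and 621, 637 and 618 with MRTX1719. All KO libraries were above all wild-type libraries, and the inhibitor groups of both lines lay between the 2 DMSO groups, with those of the KO line overlapping one another. The line difference for Ccl2 was 1.23 ± 0.021 (adjusted p = 1.56e-96). GSK3326595 gave 0.64 ± 0.021 in wild-type (adjusted p = 1.89e-59) and -0.16 ± 0.020 in KO cells (adjusted p = 9.61e-13), a difference of -0.80 ± 0.029 (adjusted p = 1.77e-54). MRTX1719 gave 0.12 ± 0.024 in wild-type (adjusted p = 7.23e-05) and -0.19 ± 0.020 in KO cells (adjusted p = 4.30e-16), a difference of -0.31 ± 0.031 (adjusted p = 3.02e-17).

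Ccl7 was at 15.4, 14.2 and 16.3 CPM in wild-type with DMSO, 23.1, 23.1 and 22.9 with GSK3326595, and 18.05 and 18.4 with MRTX1719. KO libraries were at 40.3, 44.6 and 43.3 CPM with DMSO, 36.1, 34.8 and 36.3 with GSK3326595, and 41.6, 38.9 and 40.5 with MRTX1719. As with Ccl2, no wild-type library reached the KO range, but here KO with MRTX1719 overlapped KO with DMSO and lay above KO with GSK3326595. The line difference was 1.49 ± 0.055 (adjusted p = 4.30e-55). GSK3326595 gave 0.59 ± 0.060 in wild-type (adjusted p = 3.93e-16) and -0.26 ± 0.047 in KO cells (adjusted p = 5.51e-07), a difference of -0.86 ± 0.076 (adjusted p = 2.03e-19). MRTX1719 gave 0.26 ± 0.070 in wild-type (adjusted p = 0.00936) and -0.09 ± 0.047 in KO cells (adjusted p = 0.0827), a difference of -0.34 ± 0.084 (adjusted p = 1.95e-04). The wild-type MRTX1719 call was lost without wild-type DMSO replicate 2 (adjusted p = 0.115), MRTX1719 replicate 1 (0.0684) or replicate 3 (0.114). The KO comparison with MRTX1719 passed without KO DMSO replicate 1 (0.0206) and with upper quartile scaling (4.00e-04). It also passed without the filter on low counts (0.0368) and in a fit of only the 2 groups compared (0.0115). The next chemokine gene in that cluster, Ccl11, had means of at most 0.0785 CPM.

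Ccl9, a chemokine of monocytes and dendritic cells that signals through CCR1, had the largest log2 fold change of the 8 genes in 4 of the 5 comparisons with DMSO or between lines, and it was the only one that GSK3326595 raised in both lines beyond the threshold. Wild-type libraries were at 0.591, 0.833 and 0.739 CPM with DMSO, 3.54, 2.93 and 3.10 with GSK3326595, and 0.982 and 1.10 with MRTX1719. KO libraries were at 7.44, 7.04 and 7.08 CPM with DMSO, 22.2, 20.2 and 20.8 with GSK3326595, and 27.1, 28.5 and 27.2 with MRTX1719. The 6 groups did not overlap, and the order of treatments differed between the lines, with GSK3326595 highest in wild-type and MRTX1719 highest in KO cells. The KO line was 9.89-fold higher under DMSO (3.31 ± 0.16, adjusted p = 9.48e-42). GSK3326595 gave 2.14 ± 0.19 in wild-type (adjusted p = 5.39e-19) and 1.55 ± 0.079 in KO cells (adjusted p = 1.02e-39). MRTX1719 gave 1.95 ± 0.076 in KO (adjusted p = 3.23e-52) and 0.52 ± 0.28 in wild-type cells (adjusted p = 0.293, 95% interval -0.0332 to 1.07), a difference of 1.43 ± 0.30 (adjusted p = 1.14e-05). The GSK3326595 effect differed by -0.58 ± 0.23 (adjusted p = 0.0299), a call that was lost with DESeq2 (0.0562), without the filter (0.0672), and without wild-type DMSO replicate 1 (0.146) or 3 (0.0591) or wild-type GSK3326595 replicate 1 (0.0849). Wild-type values rest on 53 counts over 3 DMSO libraries and 55 over 2 MRTX1719 libraries, against 1932 in KO with MRTX1719. Its neighbours did not share this range: Ccl6 had means of at most 0.0580 CPM and Ccl5, a T cell chemokine, of 26.5 to 37.2 CPM.

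Il6 was 4.67-fold lower in the KO line under DMSO and was raised by both compounds in wild-type cells, all at low counts. It had 15, 24 and 21 counts in wild-type libraries with DMSO, 55, 45 and 61 with GSK3326595, and 39 and 40 with MRTX1719. In KO libraries it had 4, 7 and 1 counts with DMSO, 4, 12 and 5 with GSK3326595, and 3, 7 and 3 with MRTX1719. In CPM the wild-type ranges were 0.633 to 0.912, 1.73 to 2.25 and 1.47 to 1.51, and the highest KO library was at 0.441. The wild-type groups did not overlap one another and the 3 KO groups did. The line difference was -2.22 ± 0.44 (adjusted p = 2.49e-06). GSK3326595 gave 1.31 ± 0.25 in wild-type cells (adjusted p = 4.39e-06), and MRTX1719 gave 0.86 ± 0.29 (adjusted p = 0.0478), which was lost without any single one of the 8 wild-type libraries (adjusted p from 0.0519 to 0.224) and without the filter (0.0935). In KO cells the intervals were wide, from -0.447 to 1.75 for GSK3326595 and from -1.15 to 1.31 for MRTX1719, so that a change as large as that in wild-type cells could not be told from none. The difference of the effect between lines did not pass for either compound.

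The receptors for Il6 went the other way between the lines. Il6st, the shared signalling chain, under DMSO had 589.8 ± 4.01 CPM in wild-type against 1005 ± 4.68 CPM in KO cells (SD, n = 3 each; 0.77 ± 0.019, adjusted p = 2.34e-76), and it fell by 0.70 ± 0.019 with MRTX1719 in KO cells (adjusted p = 3.63e-71). Il6ra, the binding chain, rose by 0.53 ± 0.056 between the lines (adjusted p = 8.42e-16) and fell by 0.35 ± 0.056 with MRTX1719 in KO cells (adjusted p = 1.05e-08). Lif, a cytokine of the same family, under DMSO had 142 ± 2.58 CPM in wild-type against 84.0 ± 4.01 CPM in KO cells (SD, n = 3 each). Of 17 genes of IL-6 family signalling, 16 were tested: 7 were higher and 6 lower in KO, 2 and 5 with GSK3326595 and 0 and 1 with MRTX1719 in wild-type cells, and 3 and 8 with GSK3326595 and 6 and 9 with MRTX1719 in KO cells. The share of all genes that passed was 73.2%, 41.1%, 7.53%, 52.8% and 70.5% in the same order.

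**Figure D3:**
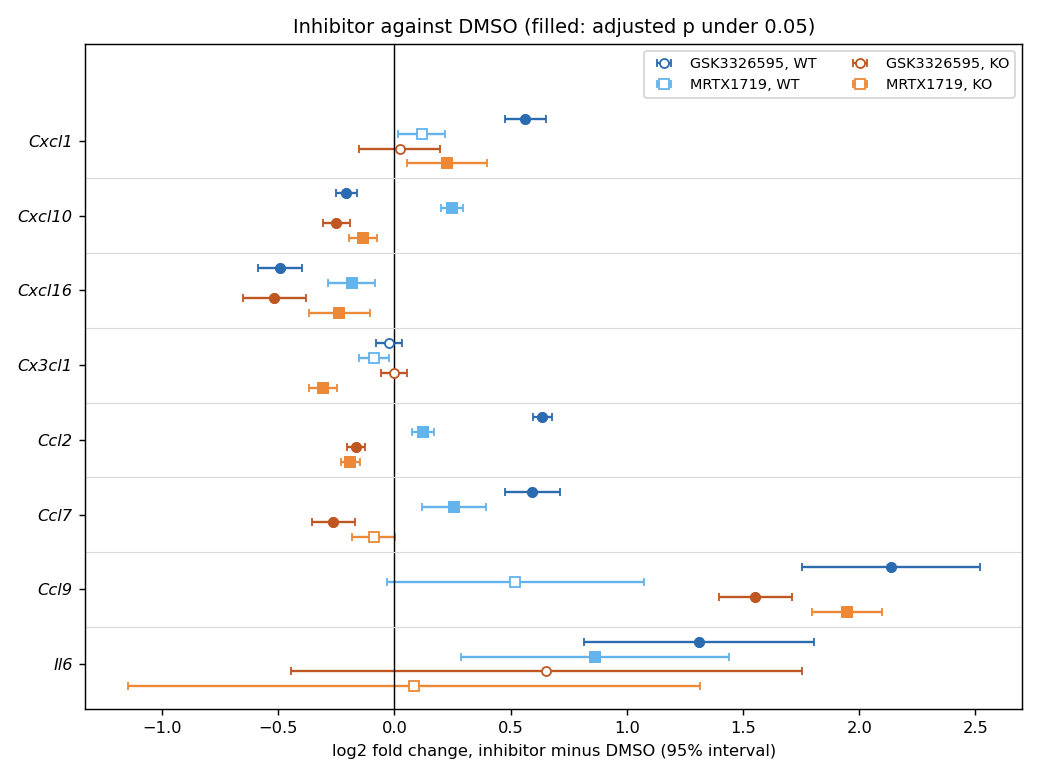
Log2 fold change of each inhibitor against DMSO in wild-type (WT, blue) and Mtap KO (orange) cells (x axis: log2 fold change; points: estimates; lines: 95% intervals; filled: adjusted p under 0.05). Cxcl16 lies left of 0 in all 4 comparisons, Ccl2 lies right of 0 in wild-type and left of 0 in KO cells, and Ccl9 is at 1.55 and 1.95 in KO cells.

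The log2 change under an inhibitor differed between the lines for 4 genes with GSK3326595, each lower in KO cells (Cxcl1, Ccl2, Ccl7, Ccl9). In that test 42.2% of all genes passed (22.0% higher, 20.2% lower in KO). The Ccl9 call was lost under several settings given above. In CPM, its mean went from 0.721 to 3.19 in wild-type and from 7.19 to 21.1 in KO cells. With MRTX1719 the log2 change differed for 5, lower in KO cells for Cxcl10, Cx3cl1, Ccl2 and Ccl7 and higher for Ccl9. There 58.2% of all genes passed (30.3% higher, 27.9% lower in KO). Cxcl16 and Il6 passed in neither. Ccl2 and Ccl7 passed in both, and Ccl9 passed in opposite directions with the 2 compounds. These 2 tests share the DMSO libraries of both lines.

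**Figure D4:**
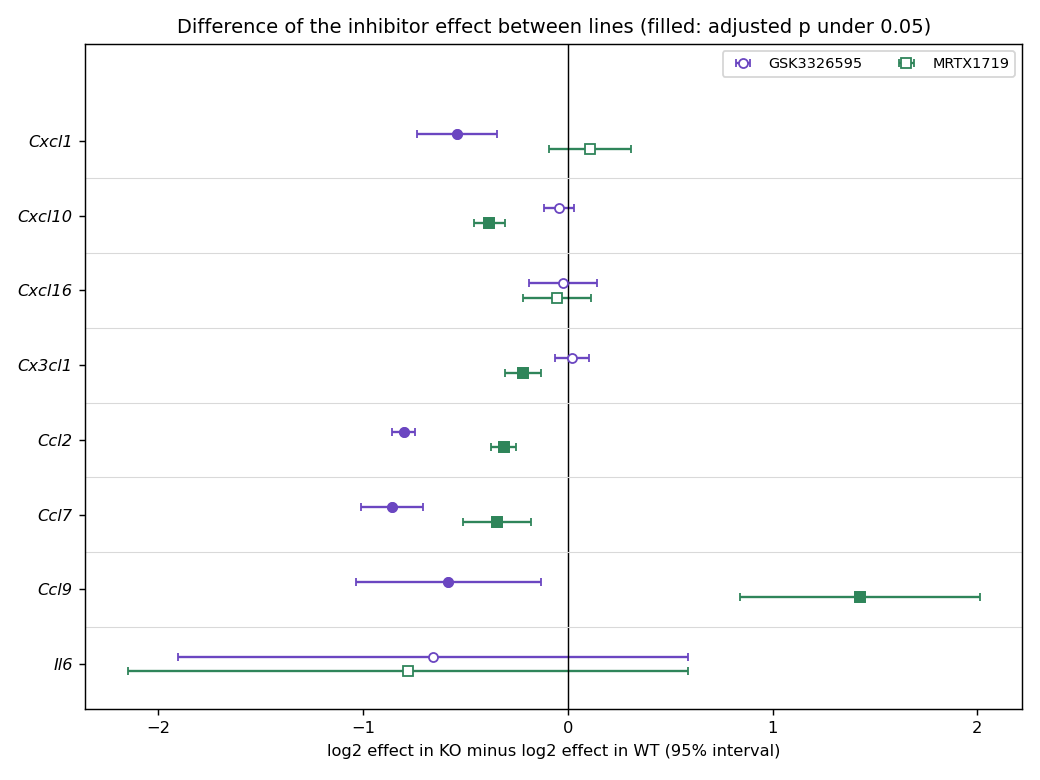
Difference of the inhibitor effect between lines, KO minus wild-type (x axis: log2 scale; circles: GSK3326595; squares: MRTX1719; lines: 95% intervals; filled: adjusted p under 0.05). Ccl2 and Ccl7 lie left of 0 for both compounds, while Ccl9 is at -0.58 for GSK3326595 and 1.43 for MRTX1719.

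The compounds were compared with each other at the same dose and time, for 8 genes in each line. In wild-type cells MRTX1719 left Cxcl10 and Cxcl16 higher and Cxcl1, Ccl2, Ccl7 and Ccl9 lower than GSK3326595, 6 of 8 genes where 30.0% of all genes passed (15.4% higher, 14.6% lower with MRTX1719). In KO cells it left Cxcl1, Cxcl10, Cxcl16, Ccl7 and Ccl9 higher and Cx3cl1 lower, also 6 of 8, where 53.2% of all genes passed (28.3% higher, 24.9% lower). Cxcl10 was higher with MRTX1719 in both lines, by 0.45 ± 0.025 in wild-type (adjusted p = 3.01e-36) and 0.12 ± 0.030 in KO cells (adjusted p = 5.06e-04). Cxcl16 was higher by 0.31 ± 0.053 (adjusted p = 7.41e-07) and 0.28 ± 0.070 (adjusted p = 3.26e-04). Ccl9 went from -1.62 ± 0.20 in wild-type (adjusted p = 6.64e-12) to 0.39 ± 0.061 in KO cells (adjusted p = 9.96e-09), and Ccl7 from -0.34 ± 0.064 (adjusted p = 6.69e-06) to 0.17 ± 0.047 (adjusted p = 8.99e-04). Ccl2 was lower by 0.51 in wild-type cells (-0.51 ± 0.023, adjusted p = 1.38e-43), and in KO cells the difference was -0.02 with an interval of -0.0643 to 0.0145 (adjusted p = 0.303). Cx3cl1 was lower in KO cells (-0.31 ± 0.030, adjusted p = 8.71e-17), with an interval of -0.131 to -0.00274 in wild-type cells (adjusted p = 0.112). That wild-type comparison passed with upper quartile scaling (0.0232) and in a fit of only these 2 groups (0.0375). Il6 did not pass in either line, with intervals of -0.933 to 0.0389 in wild-type and -1.65 to 0.508 in KO cells. The KO call of Cxcl1 (0.20 ± 0.084, adjusted p = 0.0339) was lost with DESeq2 (0.0589), upper quartile scaling (0.112), no filter (0.110) and a fit of only these 2 groups (0.0740), and without KO GSK3326595 replicate 1 (0.186) or 2 (0.0745) or KO MRTX1719 replicate 2 (0.0597) or 3 (0.0990).

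**Figure D5:**
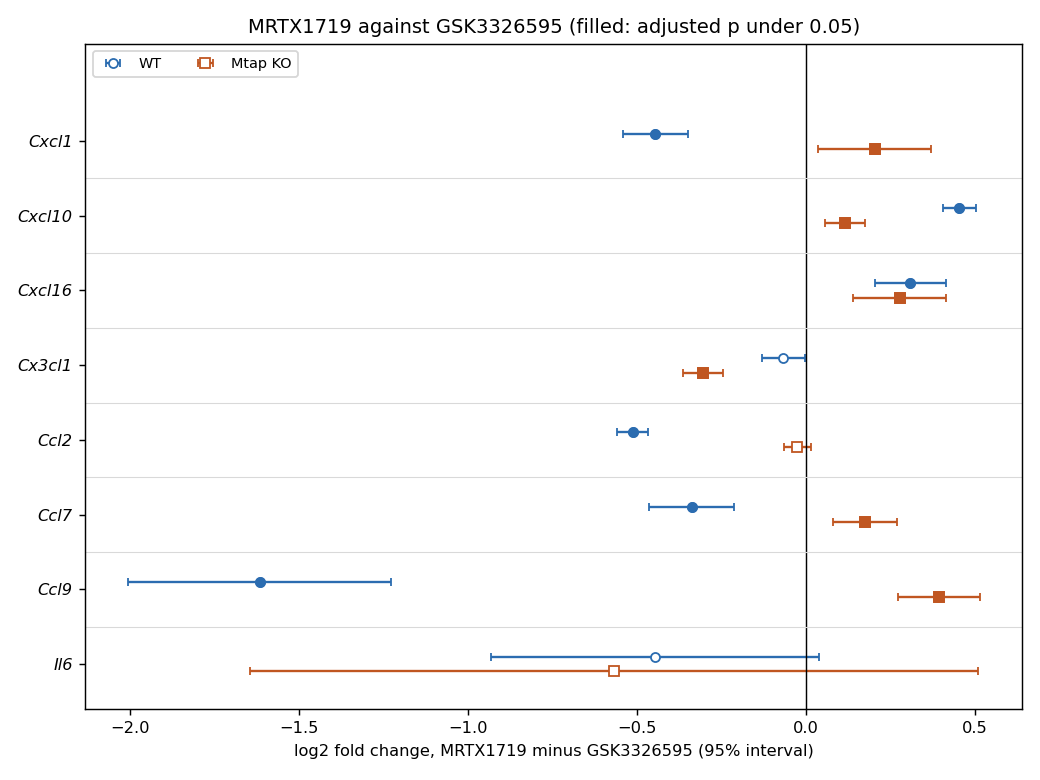
MRTX1719 against GSK3326595 in wild-type (circles) and Mtap KO cells (squares) (x axis: log2 fold change, MRTX1719 minus GSK3326595; lines: 95% intervals; filled: adjusted p under 0.05). Cxcl10 and Cxcl16 lie right of 0 in both lines, and Cxcl1, Ccl7 and Ccl9 lie left of 0 in wild-type and right of 0 in KO cells.

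Other genes of the pathways were counted from lists. Of 28 other chemokine ligands only 5 reached the test (Cxcl9, Cxcl11, Ccl5, Ccl25 and Ppbp), and of 23 chemokine receptors only 4. Between the lines under DMSO, 3 of the 5 ligands were higher and 2 lower, and of the 4 receptors 0 were higher and 2 lower. In that comparison 73.2% of all genes passed. The inducers Tnf, Il1a and Il1b were at or near 0, with the highest group mean 0.154 CPM for Tnf in KO cells with MRTX1719, and Il1b was at 0 in every library. All 31 NF-kappaB pathway genes listed were tested, with 8 higher and 18 lower in KO than wild-type under DMSO (median -0.22). With GSK3326595 and MRTX1719, 6 were higher and 11 lower, and 3 higher and 1 lower, in wild-type cells, and 10 higher and 8 lower, and 12 higher and 11 lower, in KO cells. Of all genes, 36.2% were higher and 37.0% lower between the lines, and 41.1%, 7.53%, 52.8% and 70.5% passed in the 4 inhibitor comparisons in that order. The NF-kappaB inhibitor gene Nfkbia, itself a target of the pathway, had 223 ± 1.90 CPM in wild-type against 97.9 ± 4.65 CPM in KO cells (SD, n = 3 each; -1.19 ± 0.028, adjusted p = 1.78e-78). Tnfaip3, a brake on the same pathway, rose with each compound in each line, by 0.31 ± 0.037 and 0.25 ± 0.042 in wild-type and 0.38 ± 0.038 and 0.23 ± 0.040 in KO cells for GSK3326595 and MRTX1719.

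Zfp36, whose protein shortens the life of cytokine transcripts, had 54.5 ± 1.71 CPM in wild-type against 12.9 ± 0.463 CPM in KO cells with DMSO (SD, n = 3 each; -2.08 ± 0.056, adjusted p = 2.23e-71). Both compounds lowered it in wild-type cells (-0.51 ± 0.045 and -0.23 ± 0.048). Zfp36 is also known to be induced within minutes of a stimulus. Of 17 other immediate early and heat shock genes tested, 16 were lower and 0 higher in KO than wild-type, where 37.0% of all genes were lower and 36.2% higher. Egr3, a fast-induced transcription factor gene, fell from 31.7 to 1.67 CPM (-4.25 ± 0.098, adjusted p = 1.95e-79). With MRTX1719 in wild-type cells 11 of the 17 were lower and 0 higher (3.91% of all genes were lower), and with GSK3326595 9 were lower and 4 higher (21.1% and 20.1% of all genes). In KO cells 5 were lower and 5 higher with GSK3326595, and 8 lower and 8 higher with MRTX1719, where 52.8% and 70.5% of all genes passed. Of 8 genes of cytokine transcript decay, 3 were higher and 4 lower between the lines, where 73.2% of all genes passed. Zfp36l1, of the same list and more abundant than Zfp36, was higher in KO cells. Its DMSO means were 139 CPM in wild-type and 182 in KO cells, and those of Zfp36l2 were 363 and 282 CPM.

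The genes whose levels followed each member most closely over the 17 libraries were found by Pearson's r of log2 CPM, among genes whose group means span at least 1 on the log2 scale. The libraries fall into 6 groups and share their scaling, so r mostly follows the group means and carries no p. Ccl2 and Ccl7 were each closest to the predicted gene Gm43672 (r = 0.980 and 0.986), and Ccl7 was second for Ccl2 (r = 0.976). For Cxcl1 the closest was Steap1 (r = 0.993), for Cxcl10 Glce (r = 0.998), for Cxcl16 Stx6 (r = 0.990), for Ccl9 H4c9 (r = 0.996) and for Il6 Prxl2a (r = 0.957). Cx3cl1, which changed least between groups and itself spans less than 1 on that scale, reached r = 0.906, with Ppp4r1l-ps. Other genes with so small a span were left out of the search, so this lower r cannot be set against the others.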

How the data were processed

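RNA was taken with Trizol and a column kit and made into directional poly(A) libraries for a NovaSeq X plus, per the labels' protocols. Reads were handled with TopHat2 2.0.10 and Bowtie2 2.1.0 on GRCm39 (mm39), and DESeq 1.18.0 was used, per the submitters' processing notes. The counter, annotation release and strand setting were not given in the sources used here. Overlapping genes and close relatives may therefore share reads. The deposited tables hold raw gene counts and a normalized signal. The deposited signal equals the raw counts over 1 size factor per library, and 15629 of its 15629 rows matched a single identifier (tolerance 1e-06), which took the authors' symbol. No name was found for 4144 of 56562 identifiers. The label of GSK3326595 has another last digit in a treatment field of replicates 2 and 3, and the libraries were treated as 1 compound.

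Raw counts of the 17 MC38 libraries were fitted together by group in edgeR 4.0.16 (R 4.3.3; TMM scaling, filterByExpr, robust quasi-likelihood F test, Benjamini-Hochberg adjustment over 14835 genes, threshold 0.05) in 9 comparisons. SE is the log2 fold change over the root of F, CPM uses TMM-scaled totals, and r used a prior count of 2. The script was tested on simulated data. Between replicates, the chi-square per gene was 1.40 to 2.83, above sampling noise in every pair. All 10 members are named, with some of the largest called rises or falls of each list, regulators given by name, and the closest genes by r; genes such as Ccl6, Ccl11 and Zmynd15 were added as genomic neighbours. Not every gene that the rule for lists and regulators names is printed. Members and lists were chosen with earlier results of these data known. Alternatives were DESeq2 1.42.0, other scalings and filters, only the groups compared, a replicate block and leaving out each library. Sequences are from RefSeq (GRCm38.p6), an older build than that of the files, and its neighbour order was used for gene names only.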

Additional observations from a re-analysis of the deposited data

Results flagged for a closer look

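For 9 gene and compound pairs, the effect of an inhibitor differed between the KO and the wild-type line by a test of the difference itself (an interaction term in edgeR's quasi-likelihood fit). They are 4 of 8 genes with GSK3326595 and 5 of 8 with MRTX1719, near the 42.2% and 58.2% of all genes that passed the same tests. With GSK3326595 the log2 effect in KO minus that in wild-type cells was -0.54 for Cxcl1 (adjusted p = 1.52e-06), -0.80 for Ccl2 (adjusted p = 1.77e-54), -0.86 for Ccl7 (adjusted p = 2.03e-19) and -0.58 for Ccl9 (adjusted p = 0.0299). The Ccl9 call was lost with DESeq2 (0.0562), without the filter on low counts (0.0672) and in 3 fits without single libraries (0.0591 to 0.146). With MRTX1719 it was -0.38 for Cxcl10 (adjusted p = 8.67e-17), -0.22 for Cx3cl1 (adjusted p = 9.50e-06), -0.31 for Ccl2 (adjusted p = 3.02e-17), -0.34 for Ccl7 (adjusted p = 1.95e-04) and 1.43 for Ccl9 (adjusted p = 1.14e-05).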

How the results depend on the processing

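No member's log2 fold change reversed a call under any alternative. Of the values for single genes and comparisons under settings that kept all libraries, 470 kept their side of the threshold, 10 lost it and 10 gained it, and with single libraries left out 1199 kept it, 23 lost it and 2 gained it. The count of members changed by MRTX1719 in wild-type cells, 5 as reported, was 3 with DESeq2 (3 higher, 0 lower, of 6 with an adjusted p) and ran from 2 to 5 without single libraries: 3 without wild-type DMSO replicate 1, 2 without replicate 2, 3 without MRTX1719 replicate 1 and 2 without replicate 3. The cause was not tested. In that comparison 1117 genes of all passed, against 433 and 510 without MRTX1719 replicate 1 or 3, where the lone library is assumed to vary like the other groups. The other counts kept within 1.5 times. Upper quartile scaling moved the share of higher calls among all genes from 52.1% to 35.9% and from 52.1% to 41.0% in the tests of the GSK3326595 and MRTX1719 effect between lines, and from 51.3% to 39.7% and from 53.3% to 42.9% for MRTX1719 against GSK3326595 in wild-type and KO cells. It moved from 49.4% to 56.4% between the lines, from 48.8% to 58.8% and 48.1% to 52.0% for GSK3326595 and MRTX1719 in wild-type cells, and from 52.4% to 42.9% and 42.7% for them in KO cells. Calls gained with it were those of Cx3cl1 between the lines and between compounds in wild-type cells (-0.09, adjusted p = 0.0232), Ccl7 with MRTX1719 in KO cells, Ccl2 between compounds in KO cells and Cxcl10 in the GSK3326595 test between lines (-0.11, adjusted p = 0.00852). Il6 left the test when a mean of 50 counts was required. Replicate numbers did not pair the samples (correlations of deviations -0.188 to 0.148, over 0.1 in 2 of 40 same-numbered pairs, the own number closest in 11 of 40). A replicate block left the count of members in each of the 9 comparisons as it was, for example 7 for GSK3326595 and 5 for MRTX1719 in wild-type cells, and 6023 in place of 6102 genes of all for the former.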

Other observations

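Other secreted inflammatory genes, outside the 10 described above, also moved in these cells. Csf2, the granulocyte and macrophage growth factor GM-CSF, had 1.28 ± 0.191 CPM in wild-type against 0.212 ± 0.0934 CPM in KO cells with DMSO (SD, n = 3 each). The log2 difference was -2.64 ± 0.37 (edgeR quasi-likelihood, adjusted p = 9.95e-11). In KO cells Csf2 reached 0.621 ± 0.0465 CPM with GSK3326595 and 1.34 ± 0.186 CPM with MRTX1719 (SD, n = 3 each; 2.70 ± 0.37 for MRTX1719, adjusted p = 3.90e-11). Il18, an activator of interferon gamma production, fell in KO cells by 1.01 ± 0.27 with GSK3326595 and by 2.29 ± 0.33 with MRTX1719. Its KO means were 1.63 CPM with DMSO, 0.811 with GSK3326595 and 0.334 with MRTX1719, the last on 23 summed counts. Tslp, an epithelial cytokine, was higher in KO than wild-type cells by 1.38 ± 0.19, with means of 2.98 and 1.15 CPM under DMSO. Il33, an alarm signal, rose by 1.56 ± 0.30 with GSK3326595 in wild-type cells, from a DMSO mean of 0.426 CPM (31 summed counts). In KO cells its mean was 0.937 CPM with DMSO, 2.42 with GSK3326595 and 3.29 with MRTX1719. More abundant genes of this kind went both ways by their DMSO means. Csf1 had 504 CPM in wild-type and 347 in KO cells, and Vegfa 416 and 260. Spp1 had 542 and 689 CPM, and Mif 341 and 389. Of 16 such genes 12 were tested. In KO cells 5 rose and 4 fell with GSK3326595, and 4 rose and 6 fell with MRTX1719. In wild-type cells it was 4 and 4 with GSK3326595, and 1 and 2 with MRTX1719. Over all genes tested, 52.8% and 70.5% passed with GSK3326595 and MRTX1719 in KO cells, and 41.1% and 7.53% in wild-type cells.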
